A study of Mus musculus with 3 samples.

Results

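*Ctla2a*, *Ctla2b*, *Ifi207*, *Gm41724*, *4933400C23Rik*, *Atp6v0a4* and *Htra4* are 7 of the 32285 genes counted in single-cell RNA sequencing of mouse flexor digitorum longus (FDL) tendon. They were chosen by their summed counts in tenocytes, as genes with large shifts between the 21 M B6 and the 6 M WT library in earlier results of the same data. Their tenocyte levels are therefore a description, and no support is drawn from them. The comparison of interest was whether each shift was alike in every class of cells, as a gene variant between strains would give, or was found in one class. The working name of the set, on-off genes, did not match the data, since all 7 genes had unique molecular identifiers (UMIs, 1 per captured RNA molecule) in the tenocytes of all 3 libraries. *Ctla2b* had only 6 to 23 UMIs there and no clear shift.

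The set has no shared function. CTLA-2α and CTLA-2β, encoded by *Ctla2a* and *Ctla2b*, resemble the propeptide of cathepsin L and inhibit cysteine proteases of that kind, and *Ctla2a* was first described in activated T cells. *Ifi207* belongs to the interferon-inducible Ifi200 (PYHIN) family of nucleic acid sensors and transcription regulators, which lies as one cluster of genes and is active mainly in myeloid cells. *Atp6v0a4* encodes the a4 subunit of the V-ATPase, the proton pump of lysosomes and acid-secreting membranes, and is best known in kidney and inner ear. *Htra4* encodes a secreted serine protease, and *Gm41724* and *4933400C23Rik* are long non-coding RNAs with no known role in tendon.

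Each library held FDL tendons of 16 hind limbs of mice of both sexes, and there was 1 library per group. The 6 M DTR mice were Scx-Cre+; DTR F/+ and the 6 M WT mice were their Scx-Cre-; DTR F/+ littermates, and both had 5 daily injections of diphtheria toxin (DT). In Scx-Cre+ mice, Cre driven by the scleraxis promoter switches on the DT receptor, so that DT kills cells of the Scx lineage. The 21 M B6 mice were C57BL/6J mice without DT, aged 21 months. The labels give an age of 3 months, that of the DT injections, for both young groups, which are named 6 M for their age at harvest, and the strain C57BL/6J for all 3 groups. Age, genotype, DT and a digestion of 120 min in 6 M WT against 90 min in the others all changed with the library and cannot be told apart. The libraries are called WT, DTR and B6 from here on. With no replicate library no difference was tested, and every interval below is an exact 95% interval that covers counting error only.

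The libraries held 148149903, 123918145 and 92707026 UMIs for WT, DTR and B6. Keeping cells with 1000 to 5000 genes whose mitochondrial share did not exceed 10% left 8357, 6554 and 4798 cells, and 13 to 15 barcodes were shared between pairs of libraries. Kept cells were placed in 8 classes by summed markers that include none of the 7 genes, and 74.0% to 80.3% of cells were placed. There were 4612, 2372 and 610 tenocyte-like cells, and 705, 354 and 185 cells lay near the limit of the class on either side. There were 1043, 997 and 2136 epitenon-like cells. Summed *Tnmd*, *Fmod*, *Cilp2*, *Fibin*, *Chad*, *Thbs4*, *Scx* and *Mkx* were at 15751, 17055 and 16312 CPM in tenocyte-like cells. These markers placed the cells, so the sums do not test the label. *Cilp2* (1254 to 545 CPM between WT and B6), *Fibin* (1194 to 598), *Chad* (3112 to 1991) and *Scx* were lower in B6. *Thbs4* (2669 to 4659 CPM), *Fmod*, *Tnmd* and *Mkx* were higher there. CPM is the count of a gene summed over the cells of a class, scaled to 1000000 UMIs of those cells. Tenocyte-like cells had a median of 12923, 12398.5 and 11075 UMIs.

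*Ctla2a* and *Ctla2b* are similar genes that lie close together, which bears on how well reads tell them apart. Their promoters (RefSeq, GRCm38.p6, 250 bases before the gene start, minus strand) lie at chr13:60936626-60936875 and chr13:60897448-60897697. Within the part where the windows align, capitals mark the bases that differ from, or are missing in, the other promoter. The start of the *Ctla2a* window and the end of the *Ctla2b* window lie outside that part. They are in lower case although the other window does not hold them.
Ctla2a: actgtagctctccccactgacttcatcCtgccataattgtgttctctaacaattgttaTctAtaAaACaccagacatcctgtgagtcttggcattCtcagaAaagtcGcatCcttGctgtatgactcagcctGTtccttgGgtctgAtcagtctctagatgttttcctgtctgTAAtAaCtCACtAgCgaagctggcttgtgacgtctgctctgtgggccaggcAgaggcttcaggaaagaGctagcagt
Ctla2b: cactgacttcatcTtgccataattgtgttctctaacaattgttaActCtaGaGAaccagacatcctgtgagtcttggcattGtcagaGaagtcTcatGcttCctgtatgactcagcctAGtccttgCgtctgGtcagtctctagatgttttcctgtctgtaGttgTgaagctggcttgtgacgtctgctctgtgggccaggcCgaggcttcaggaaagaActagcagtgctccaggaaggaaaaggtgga
Of 236 aligned positions 209 (88.6%) were identical. The transcripts of the pair shared 740 of 832 aligned bases (88.9%), but only 70.5% of the last 200, and 62 of 1314 windows of 60 bases of the *Ctla2a* transcript (4.72%) were also found in that of *Ctla2b*. Reads from those windows match both genes, so the level of either gene carries that uncertainty.

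The promoter of *Ifi207* is shown because genes of its family were higher together in B6 tenocyte-like cells. It lies at chr1:173741810-173742059 on the minus strand of GRCm38.p6. Capitals mark the match to the core of the interferon-stimulated response element, searched on both strands as a pair of GAAA runs with any 2 bases between them.
Ifi207: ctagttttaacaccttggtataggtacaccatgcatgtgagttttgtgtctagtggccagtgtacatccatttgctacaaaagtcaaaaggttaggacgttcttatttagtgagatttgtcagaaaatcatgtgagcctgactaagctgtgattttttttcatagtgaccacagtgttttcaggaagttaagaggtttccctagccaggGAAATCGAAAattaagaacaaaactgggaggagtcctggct
The match begins 41 bases before the gene start. Windows of 60 bases around the match in *Ifi211* (chr1:173913049-173913108), *Ifi205* (chr1:174031855-174031914) and *Mndal* (chr1:173880189-173880248), all on the minus strand, show how alike the family is at this place.
Ifi211: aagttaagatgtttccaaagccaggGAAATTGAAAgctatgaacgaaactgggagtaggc
Ifi205: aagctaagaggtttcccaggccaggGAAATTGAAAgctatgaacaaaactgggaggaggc
Mndal: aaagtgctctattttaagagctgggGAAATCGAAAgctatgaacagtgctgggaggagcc
The motif was present in the promoters of 8 of 10 other family genes with an entry and of 936 of all 27025 genes (3.46%). These genes are paralogs, so their promoters are not independent, and a match describes letters only. The windows of *Atp6v0a4* (chr6:38124587-38124836, minus strand) and *4933400C23Rik* (chr9:92718466-92718715, plus strand) held no match. The table used here has no promoter entry for *Gm41724* and *Htra4*.

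In tenocyte-like cells 6 members had at least 10 CPM in WT or B6, and 4 of them were lower past 2-fold in B6, where 3.37% of 7323 genes at that level were lower by as much. The other 2, *Ctla2a* and *Ifi207*, were higher past 2-fold, beside 3.09% of genes, and these counts follow from how the members were chosen. *Ctla2b* was below that level. The median log2 ratio of all genes in this comparison was -0.29. Between DTR and WT, which the choice did not use but which has the same control library, 1 of 5 members at that level was lower past 2-fold beside 1.66% of 7552 genes, and 1, *Ifi207*, was higher beside 2.45%. *Ctla2a*, at 4.53 CPM or less in both, was below that level and had a ratio of 2.44 (1.90 to 3.15). Shares of cells with a UMI were compared as the share expected if each cell were thinned to 2000 UMIs. By this share *Atp6v0a4*, *Gm41724*, *Htra4* and *4933400C23Rik* were detected in fewer, and *Ifi207* in more, tenocyte-like cells of B6.

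**Figure D1:**
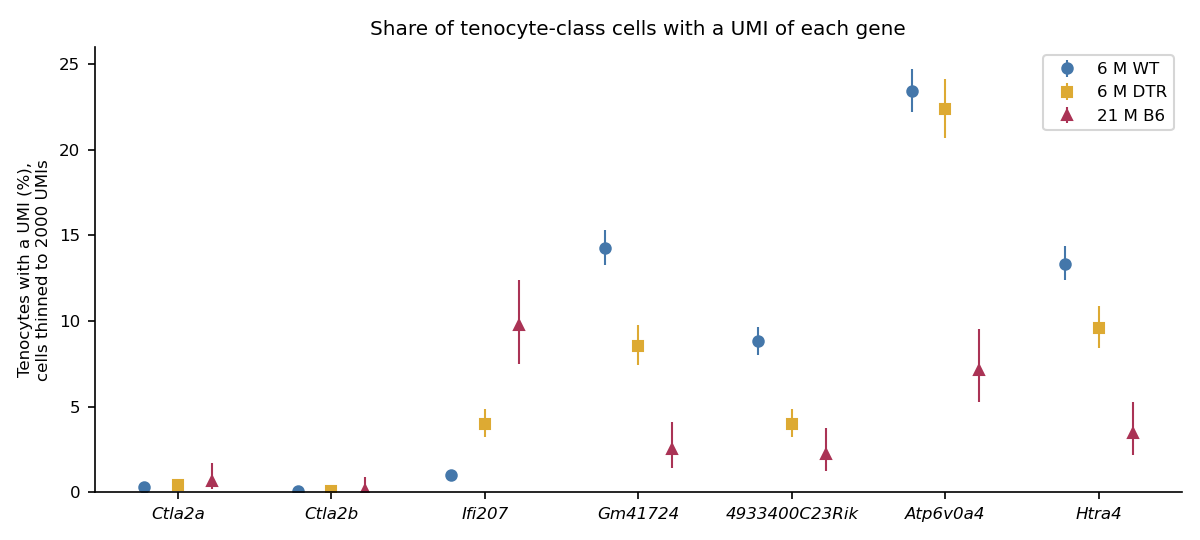
Expected share (%) of tenocyte-like cells with at least 1 UMI of each gene after thinning to 2000 UMIs, for WT, DTR and B6, with exact 95% binomial intervals. *Ifi207* goes from 1.00% in WT to 9.75% in B6, *Atp6v0a4* from 23.4% to 7.17%, and *Ctla2a* stays under 1% in all 3 libraries.

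*Ctla2a* (ENSMUSG00000044258), the cathepsin L-like inhibitor, had the highest ratio of all 7323 genes in tenocyte-like cells, and that ratio came from a pair of cells. Its level was 1.85 CPM in WT (115 UMIs), 4.53 CPM in DTR (142 UMIs) and 45.5 CPM in B6 (332 UMIs), a ratio of 24.6 (19.8 to 30.6) between B6 and WT. A UMI of *Ctla2a* was found in 69, 42 and 9 tenocyte-like cells, or 1.496%, 1.771% and 1.475%. The levels thus differed between libraries while the shares of positive cells did not differ beyond counting error. In B6, 1 cell held 169 UMIs and another 145, together 94.6% of the total, and the other 7 positive cells held 6, 4, 3, 2, 1, 1 and 1. Without the 2 highest cells of each library the levels were 1.40, 2.11 and 2.48 CPM, and the ratio between B6 and WT was 1.77 (1.00 to 2.96), in a calculation chosen after seeing the data. The highest cells held 22 and 6 UMIs in WT and 60 and 16 in DTR, where the cell with 60 fell among the T cells when cells were clustered.

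The pair of *Ctla2a*-rich cells in B6 carried tenocyte markers and no marker of T cells or endothelium. They had 573 and 100 UMIs of the tenocyte markers, among them 206 and 24 of *Fmod*, and 18445 and 13127 UMIs in all. Both had 0 UMIs of the 7 T cell markers, of the 8 endothelial markers and of *Ptprc*, the pan-leukocyte gene. *Ctla2a* made up 0.916% and 1.11% of their UMIs, their mitochondrial shares were 5.76% and 5.49%, and their second-best class reached 0.391 and 0.460 of the score of the first. With a mitochondrial limit of 5% or a stricter gate neither cell was kept as tenocyte-like, and the ratio was 2.06 and 1.34. When cells were instead taken from integrated clusters, 5 cells of the B6 tenocyte cluster held 89 to 169 *Ctla2a* UMIs, and no cell of that cluster held 50 or more in WT or DTR. The ratio there was 32.5 (27.1 to 39.2).

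**Figure D2:**
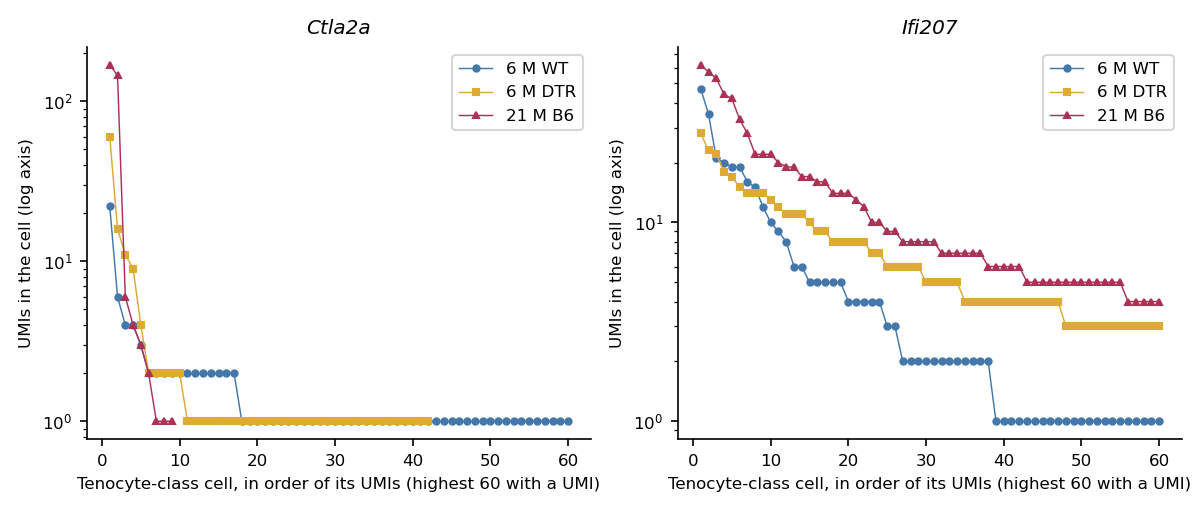
UMIs of *Ctla2a* (left) and *Ifi207* (right) in single tenocyte-like cells, ordered from the highest down to at most 60 cells per library, on a log axis. In B6 *Ctla2a* drops from 169 and 145 UMIs in the first cells to 6 in the next, while *Ifi207* declines gradually, with 55 cells at 5 UMIs or more.

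Outside tenocytes *Ctla2a* was a gene of T cell-like and endothelial-like cells, and its level there differed by less than 2-fold between B6 and WT. T cell-like cells had 1010, 703 and 1223 CPM in WT, DTR and B6, and the ratio of B6 to WT was 1.21 (1.11 to 1.32), though 0.272 with a mitochondrial limit of 5%. Endothelial-like cells had 1028, 1292 and 964 CPM, a ratio of 0.938 (0.865 to 1.02). In both classes positive cells were common, 36.1% to 47.9% of T cell-like and 75.0% to 90.8% of endothelial-like cells, with a median of 7 to 22 UMIs each against 1 to 3 in tenocyte-like cells. Macrophage-like cells, not known for the gene, had 6.15, 6.73 and 7.03 CPM, a ratio of 1.14 (0.758 to 1.72). After thinning, 0.983%, 1.33% and 1.25% of macrophage-like cells were positive, against 0.317%, 0.441% and 0.668% of tenocyte-like cells, at median depths of 16089.5, 13162 and 13771 UMIs in the macrophage-like cells. The tenocyte share was thus below the macrophage share in all 3 libraries, and how much of it is background was not tested. Epitenon-like cells had 14, 38 and 82 UMIs (0.859, 2.42 and 2.53 CPM), a ratio of 2.95 (1.66 to 5.62), and at most 13 UMIs in any cell. That ratio was 5.38 in female and 0.567 in male cells, the latter from 9 and 14 UMIs in WT and B6.

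*Ctla2b* (ENSMUSG00000074874), the second inhibitor of the pair, was too rare in tenocyte-like cells to show a shift. It had 23, 13 and 6 UMIs there (0.371, 0.415 and 0.823 CPM) in 17, 11 and 5 cells, a ratio of 2.22 (0.739 to 5.61). The gene was found in macrophage-like cells at 42.4, 34.2 and 61.8 CPM, in T cell-like cells at 57.4, 45.8 and 37.9 CPM and in endothelial-like cells at 74.8, 75.9 and 68.2 CPM. The ratios of B6 to WT were 1.46 (1.27 to 1.68), 0.660 (0.410 to 1.04) and 0.912 (0.668 to 1.24), and none was past 2-fold. Cathepsins and cystatins are the proteases that inhibitors of this kind act on and their other inhibitors. Of 9 measured, 0 were past 2-fold in tenocyte-like cells of B6, beside 3.37% of all genes lower and 3.09% higher. Their median log2 ratio was -0.23, near the -0.29 of all genes. *Ctsl*, which encodes cathepsin L, had 941 and 931 CPM in tenocyte-like cells of WT and B6.

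*Ifi207* (ENSMUSG00000073490) was higher in B6 in several classes, and by far more in tenocyte-like cells than in the classes where it is most abundant. In tenocyte-like cells it had 7.70 CPM in WT (478 UMIs), 26.1 CPM in DTR (818 UMIs) and 125 CPM in B6 (913 UMIs). The ratio of B6 to WT was 16.3 (14.5 to 18.2), the rank of 4 from the highest among 7323 genes, and that of DTR to WT was 3.39 (3.02 to 3.799). Macrophage-like cells, where such genes are usually active, had 1037, 939 and 1334 CPM, and epitenon-like cells 131, 69.3 and 207 CPM. The ratios of B6 to WT were 1.29 (1.25 to 1.32) and 1.58 (1.505 to 1.66). Endothelial-like cells had 19.1, 16.3 and 71.7 CPM, a ratio of 3.76 (2.38 to 6.14), and mural-like cells 25.7, 36.7 and 51.0 CPM, a ratio of 1.99 (1.03 to 3.72). In muscle-like cells 1, 29 and 33 UMIs were counted, of which 1 cell held 21 in DTR and 1 cell held 15 in B6. The interval of the tenocyte ratio shared values with 1 of the 5 other measured classes, muscle, whose own interval ran from 2.20 to 534.

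The tenocyte difference in *Ifi207* lay in a minority of the cells, though in more than a pair. In B6, 493 of the 610 tenocyte-like cells held 0 UMIs of the gene. Positive cells were 4.29%, 14.0% and 19.2% of tenocyte-like cells in WT, DTR and B6, and 1.00% (0.737 to 1.34), 4.00% (3.24 to 4.86) and 9.75% (7.51 to 12.4) after thinning. T cell-like cells, which should hold little of it, gave 0.615% (0.00429 to 4.28), 1.60% (0.500 to 3.77) and 1.56% (0.0537 to 7.85) after thinning, and these intervals overlapped those of tenocyte-like cells. At 5000 UMIs they overlapped in WT alone, with 8.06% (6.98 to 9.25) of tenocyte-like against 2.80% (1.17 to 5.58) of T cell-like cells in DTR and 15.1% (12.3 to 18.3) against 4.13% (0.786 to 12.04) in B6. The highest T cell-like cell held 1, 13 and 1 UMIs, against 47, 28 and 62 for the highest tenocyte-like cell. At 5 UMIs or more there were 19 cells in WT (0.412%), 34 in DTR (1.43%) and 55 in B6 (9.02%). Without the 2 highest cells of each library the ratio was 17.1 (15.2 to 19.4). The level of *Ifi207* in tenocyte-like cells was 0.743%, 2.78% and 9.38% of that in macrophage-like cells, beside 0.248%, 0.362% and 0.261% for the summed macrophage markers, and the part of free macrophage RNA was not tested.

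Cells called female or male by *Xist* and genes of the Y chromosome differed in this shift. Among tenocyte-like cells of B6, *Ifi207* had 221 CPM in 243 female cells and 23.9 CPM in 202 male cells. In WT the levels were 8.79 and 5.40 CPM, and in DTR 28.2 and 25.8 CPM. The ratio of B6 to WT was 25.1 (22.1 to 28.6) in female and 4.42 (3.07 to 6.34) in male tenocyte-like cells, and these intervals do not overlap. In epitenon-like cells the order was the other way, with 1.24 (1.17 to 1.32) in female and 2.23 (2.02 to 2.47) in male cells. Macrophage-like cells gave 1.23 (1.18 to 1.28) and 1.34 (1.27 to 1.42). Sex was not replicated within a library, so this difference was not tested.

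The other Ifi200 genes followed *Ifi207* in tenocyte-like cells. Of 4 measured family genes 4 were higher past 2-fold in B6, beside 3.09% of all genes, with a median log2 ratio of 1.87. *Ifi204* went from 8.57 to 50.5 CPM between WT and B6, *Ifi203* from 6.53 to 25.8, *Ifi211* from 55.9 to 190 and *Ifi205* from 121 to 402 CPM. These genes are paralogs, so some reads may match several of them, and *Ifi204*, *Ifi211* and *Ifi203* are also the nearest measured genes on one side of *Ifi207*. Within a library they were found in the same cells. In the 55 tenocyte-like cells of B6 with 5 or more *Ifi207* UMIs, *Ifi205* had 1632 CPM, *Ifi211* 652 and *Ifi204* 262 CPM, against 214, 112 and 17.0 CPM in the 493 cells with 0. Summed macrophage markers were at 69.0 CPM in those 55 cells and 30.5 CPM in the 493, and at 598 and 27.2 CPM in the corresponding 19 and 4414 cells of WT. In those 19 cells of WT, *C1qa*, *C1qb* and *C1qc* had 0 UMIs and *Pf4* had 1. The sum there came almost wholly from the other macrophage markers. In the 55 cells of B6 the same genes had 7, 7, 21 and 10 UMIs. The part of macrophage RNA in these cells was not tested.

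In the other classes compared the family differed less, and in T cell-like cells more of its genes were lower than higher in B6, with wide intervals. Epitenon-like cells had 2 of 5 measured family genes higher past 2-fold, *Ifi203* (40.6 to 168 CPM) and *Mndal* (22.8 to 48.4 CPM), beside 1.75% of all genes. In macrophage-like cells 0 of 6 were past 2-fold, beside 2.93% higher and 3.01% lower among all genes, and in endothelial-like cells 3 of 5 were higher, beside 5.08%. In T cell-like cells 3 of 5 were lower and 0 higher, beside 10.7% and 3.32%. The median log2 ratio of those 5 genes was -1.11, against -0.24 for all genes, from 116 cells in WT and 71 in B6. Among them *Ifi203* had a ratio of 0.655 (0.410 to 1.02), *Ifi204* of 0.325 (0.0604 to 1.15) and *Ifi209* of 0.465 (0.183 to 1.05). *Ifi204* and *Ifi209* were past 2-fold lower and *Ifi203* was not. Their intervals reach past 1, so the direction of these genes is uncertain. The other measured family genes of this class, among them 1 past 2-fold lower, are not given here. In DTR against WT, tenocyte-like cells had 1 of 3 higher, *Ifi204* at 23.6 CPM, beside 2.45% of all genes. Epitenon-like cells of DTR had 2 of 5 lower, beside 1.35% of genes lower and 0.333% higher. *Ifi207* itself had a ratio of 0.528 (0.491 to 0.569) in DTR epitenon-like cells, the opposite direction from tenocyte-like cells. Interferon response genes outside the family were higher past 2-fold in B6 for 3 of 7 measured in tenocyte-like cells (*Ifit1*, 18.5 to 74.5 CPM, *Isg15* and *Irf7*), beside 3.09% of all genes. The count was 5 of 8 in epitenon-like cells, beside 1.75%. It was 8 of 11 in endothelial-like cells, beside 5.08%, with *Isg15* at 265 and 1146 CPM there. In macrophage-like cells 1 of 6, *Rsad2*, was higher, beside 2.93%, and in T cell-like cells 2 of 6, beside 3.32%. In DTR tenocyte-like cells 2 of 5 interferon genes were lower instead, beside 1.66% of all genes.

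*Gm41724* (ENSMUSG00000118365), a long non-coding RNA, had the largest reduction of the set. Tenocyte-like cells had 181 CPM in WT (11209 UMIs), 94.8 CPM in DTR (2974 UMIs) and 15.9 CPM in B6 (116 UMIs). The ratio of B6 to WT was 0.0881 (0.0727 to 0.106), the rank of 11 from the lowest of 7323 genes, and that of DTR to WT was 0.525 (0.504 to 0.547). Positive cells after thinning were 14.3% (13.3 to 15.3), 8.55% (7.46 to 9.75) and 2.55% (1.45 to 4.14). Expression was uneven within tenocytes, with up to 183 UMIs in 1 cell of WT and 3205 of 4612 cells at 0, and in B6 no cell had more than 13. The gene was low rather than absent in the B6 library, where 48 tenocyte-like cells held a UMI.

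Outside tenocytes *Gm41724* was rare, so its shift in other classes rests on few UMIs. Epitenon-like cells had 53, 27 and 23 UMIs (3.25, 1.72 and 0.709 CPM), a ratio of 0.218 (0.128 to 0.362) whose interval did not overlap that of tenocyte-like cells. The intervals of the integrated epitenon and tenocyte clusters did overlap. The epitenon-like levels were 1.80%, 1.81% and 4.46% of the tenocyte levels of the same libraries, beside 1.81%, 1.31% and 0.598% for the summed tenocyte markers, and the part of free tenocyte RNA was not tested. Macrophage-like cells had 19, 10 and 0 UMIs, and the interval of the ratio of B6 to WT ended at 0.287. Endothelial-like cells had 19, 0 and 1 UMIs, the 19 in 2 cells. Muscle-like cells, which also carried tenocyte markers at 1160 to 1641 CPM, had 29, 38 and 2 UMIs in 3, 4 and 2 cells. In the 4 classes with at least 20 UMIs in both libraries together (tenocyte, epitenon, endothelial and muscle) the ratio was past 2-fold lower, but without the 2 highest cells of each library only tenocyte and epitenon still had enough UMIs to be counted, at 0.0726 (0.0585 to 0.0890) and 0.225 (0.119 to 0.408).

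*4933400C23Rik* (ENSMUSG00000101734), the other non-coding RNA, was lower in both DTR and B6. Tenocyte-like cells had 61.1 CPM (3792 UMIs), 24.7 CPM (776 UMIs) and 15.1 CPM (110 UMIs) in WT, DTR and B6. The ratios to WT were 0.405 (0.374 to 0.438) for DTR and 0.247 (0.202 to 0.298) for B6, and that of B6 to DTR was 0.610 (0.495 to 0.745). It was the 1 member past 2-fold lower in DTR tenocyte-like cells. Positive cells after thinning were 8.82% (8.01 to 9.67), 3.99% (3.24 to 4.86) and 2.24% (1.22 to 3.76). Female tenocyte-like cells had 74.0, 44.1 and 23.4 CPM and male cells 29.7, 14.1 and 9.05 CPM, so the gene was higher in female cells of each library and lower in B6 than in WT in both sexes. Epitenon-like cells had 24, 16 and 11 UMIs, a ratio of 0.231 (0.102 to 0.489), and no other class had more than 6 UMIs in any library. Summed tenocyte markers in the epitenon-like cells were at 285, 223 and 97.6 CPM, and the part of free tenocyte RNA was not tested. The levels in macrophage-like, T cell-like and endothelial-like cells were too low for a comparison at this depth.

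*Atp6v0a4* (ENSMUSG00000038600), the a4 subunit of the proton pump, differed in tenocyte-like cells of B6 and hardly at all in those of DTR. Tenocyte-like cells had 150 CPM in WT (9305 UMIs), 156 CPM in DTR (4877 UMIs) and 39.1 CPM in B6 (285 UMIs). The ratio of B6 to WT was 0.261 (0.231 to 0.293) and that of DTR to WT was 1.04 (1.00 to 1.07). It was the most widely detected member in tenocyte-like cells, with 63.7%, 58.3% and 27.9% positive, and 23.4% (22.2 to 24.7), 22.4% (20.7 to 24.1) and 7.17% (5.25 to 9.52) after thinning. In macrophage-like cells, which should lack the gene, 0.290%, 0.132% and 0.0624% were positive after thinning. High counts were rarer in B6, with 7 of 610 cells at 5 UMIs or more against 611 of 4612 in WT. Cells with 0 UMIs were 440 of 610 against 1676 of 4612. Whether each cell held less or the mix of cells differed was not tested. Epitenon-like cells had 35, 36 and 16 UMIs, a ratio of 0.230 (0.119 to 0.426), at 1.43%, 1.47% and 1.26% of the tenocyte level. Summed tenocyte markers were at 285, 223 and 97.6 CPM in epitenon-like cells of WT, DTR and B6. They were at 15751, 17055 and 16312 CPM in tenocyte-like cells, and the part of free tenocyte RNA was not tested. Endothelial-like cells had 0 UMIs in all 3 libraries, and muscle-like cells 3, 41 and 5 UMIs. On such low counts the ratio of DTR to WT was 6.07 (1.94 to 30.6) in muscle-like and 0.399 (0.152 to 0.989) in macrophage-like cells. It was 1.07 (0.651 to 1.75) in epitenon-like cells, but 2.15 (1.71 to 2.72) in the integrated epitenon cluster.

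In B6 tenocyte-like cells the other measured genes of the proton pump differed about as all genes did. Of 16 other measured V-ATPase genes in these cells 0 were past 2-fold, beside 3.37% of all genes lower and 3.09% higher. Their median log2 ratio of -0.31 was near the -0.29 of all genes. The other a subunits had 16.1 and 9.05 CPM for *Atp6v0a1* and 23.3 and 20.2 CPM for *Atp6v0a2* in WT and B6, and *Tcirg1*, which encodes a3, had 6.28 and 5.07 CPM. The gene overlaps *Tmem213* on the opposite strand and *D630045J12Rik* on the same strand. *D630045J12Rik* had 10.6 and 3.43 CPM in tenocyte-like cells, a ratio of 0.324 (0.208 to 0.482), and reads in the shared part cannot be told apart.

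*Htra4* (ENSMUSG00000037406), the secreted serine protease, showed a shift in tenocyte-like cells and none past 2-fold in a small group of cells where it is most abundant. Tenocyte-like cells had 110 CPM in WT (6796 UMIs), 72.8 CPM in DTR (2282 UMIs) and 21.8 CPM in B6 (159 UMIs). The ratio of B6 to WT was 0.199 (0.169 to 0.233), that of DTR 0.664 (0.633 to 0.697), and 13.4%, 9.60% and 3.48% of cells were positive after thinning. Epitenon-like cells had 36.3, 15.7 and 18.4 CPM, a ratio of 0.505 (0.450 to 0.567), but 1 cell of WT held 194 of the 592 UMIs. Without the 2 highest cells of each library that ratio was 0.799 (0.693 to 0.922), while the tenocyte ratio was 0.170. The epitenon ratio also turned with sex, at 0.386 in female and 2.50 in male cells. Macrophage-like cells had 6.04, 2.64 and 3.89 CPM, a ratio of 0.645 (0.387 to 1.05).

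The *Htra4*-rich epitenon-like cells belonged to a cluster of their own when the cells were clustered after integration, without the 7 genes among the features. That cluster was led by *Clic5*, *Col22a1*, *Rab37*, *Bglap2* and *Tspan15*, and stays unnamed because only 2 markers of any class were raised in it. It held 88, 119 and 137 cells in WT, DTR and B6, of which 40, 48 and 74 had been placed as epitenon-like and nearly all others in no class. *Htra4* had 595 CPM in WT (930 UMIs), 651 CPM in DTR (1371 UMIs) and 553 CPM in B6 (1441 UMIs) in these cells. The ratios to WT were 1.09 (1.005 to 1.19) for DTR and 0.929 (0.855 to 1.01) for B6, and 77.3%, 62.2% and 77.4% of the cells were positive. These cells made up 1.05%, 1.82% and 2.86% of kept cells and held 10.1%, 30.9% and 72.5% of all *Htra4* UMIs. The epitenon cluster without them had 11.8, 13.4 and 4.46 CPM, a ratio of 0.379 (0.311 to 0.461) in B6, and the tenocyte cluster had 108, 73.8 and 27.2 CPM. The antisense gene *Gm16933* overlaps *Htra4*, and the 2 strands are told apart only if the counting used strand.

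**Figure D3:**
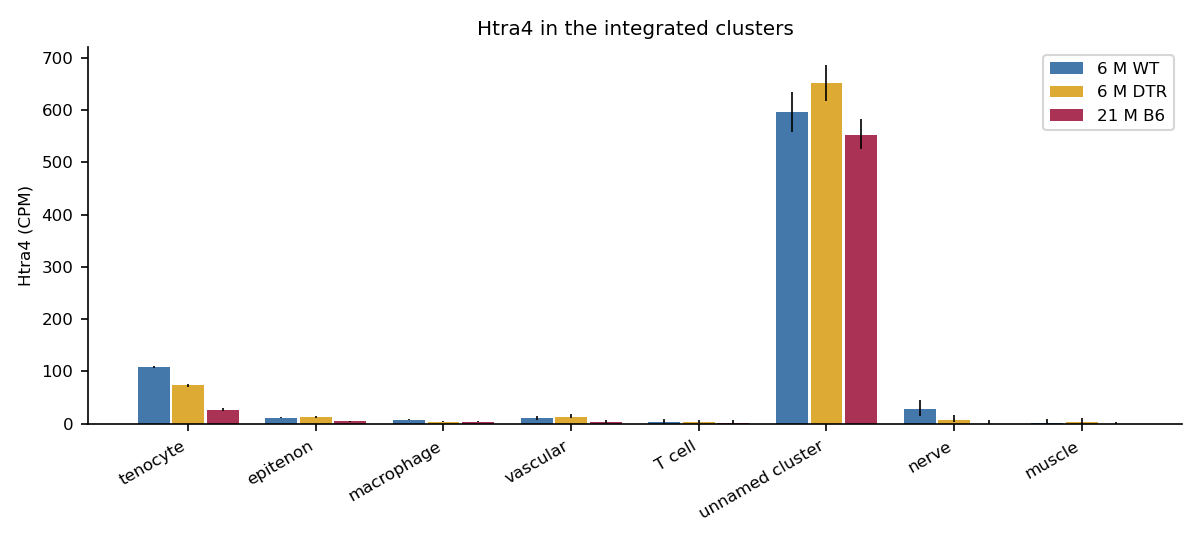
*Htra4* level (CPM) in the 8 integrated clusters of WT, DTR and B6, with exact 95% intervals for counting error. The unnamed cluster stands at 595, 651 and 553 CPM, whereas the tenocyte cluster goes from 108 to 27.2 CPM.

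Among other HtrA proteases *Htra1* had 550 CPM in WT and 258 CPM in B6 tenocyte-like cells, past 2-fold lower, whereas *Htra3* (390 and 240 CPM) and *Htra2* (16.6 and 13.2 CPM) were not past 2-fold. In DTR none of the 3 was past 2-fold in these cells, beside 1.66% of all genes lower and 2.45% higher. The muscle-like cells of DTR stood apart for *Htra4*, with 71 UMIs (99.4 CPM) against 4 and 7 in WT and B6, but 1 cell held 44 of the 71. The integrated muscle cluster held 1, 2 and 0 UMIs in WT, DTR and B6.

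Set side by side, the classes gave different answers for different members. Only classes with at least 20 UMIs of a gene in both libraries together were counted as measured. A gene rare in 1 library could pass this limit through the other, and a ratio past 2-fold then largely followed from the limit. That held for *Gm41724* in endothelial-like (19 UMIs in WT and 1 in B6) and muscle-like cells (29 and 2). It also held for *Ifi207* in muscle-like cells (1 and 33). Counting tenocyte-like cells, *Ctla2a* was past 2-fold higher in B6 in 2 of 6 measured classes, *Ifi207* in 3 of 6 and *Ctla2b* in 1 of 4. *Gm41724* was past 2-fold lower in 4 of 4, *4933400C23Rik* and *Atp6v0a4* in 2 of 2, and *Htra4* in 1 of 3. Without tenocyte-like cells, whose shift the choice used, the first counts were 1 of 5, 2 of 5 and 0 of 3. The counts lower were then 3 of 3, 1 of 1, 1 of 1 and 0 of 2, in the same order. The intervals of all measured classes shared a common ratio for *4933400C23Rik* and *Atp6v0a4*, where epitenon was the only class besides tenocytes and held 11 to 36 UMIs per library, and for no other member. In epitenon-like cells the summed tenocyte markers also went from 285 to 97.6 CPM between WT and B6. The part of free tenocyte RNA in that common ratio was not tested. In integrated clusters no common ratio was left for *Atp6v0a4*, which was at 0.232 (0.210 to 0.256) in the tenocyte, 0.0766 (0.0406 to 0.134) in the epitenon and 0.0517 (0.00610 to 0.196) in the macrophage cluster. For *Gm41724* the intervals of these clusters did share a common ratio. They were 0.0837 (0.0724 to 0.0963), 0.108 (0.0696 to 0.162) and 0 (0 to 0.0764, from 68 and 0 UMIs in WT and B6). The vascular cluster, which merges endothelial-like and mural-like cells, lay outside it at 0.556 (0.318 to 0.943). With the main settings no member was past 2-fold in opposite directions in different classes of B6 against WT. Under alternatives this was not so. In male cells *Htra4* was at 0.210 in tenocyte-like and 2.50 in epitenon-like cells. In female cells *Ifi207* was at 25.1 in tenocyte-like and 0 in mural-like cells. With a mitochondrial limit of 5% *Ctla2a* was past 2-fold higher in tenocyte-like cells and at 0.272 in T cell-like cells.

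**Figure D4:**
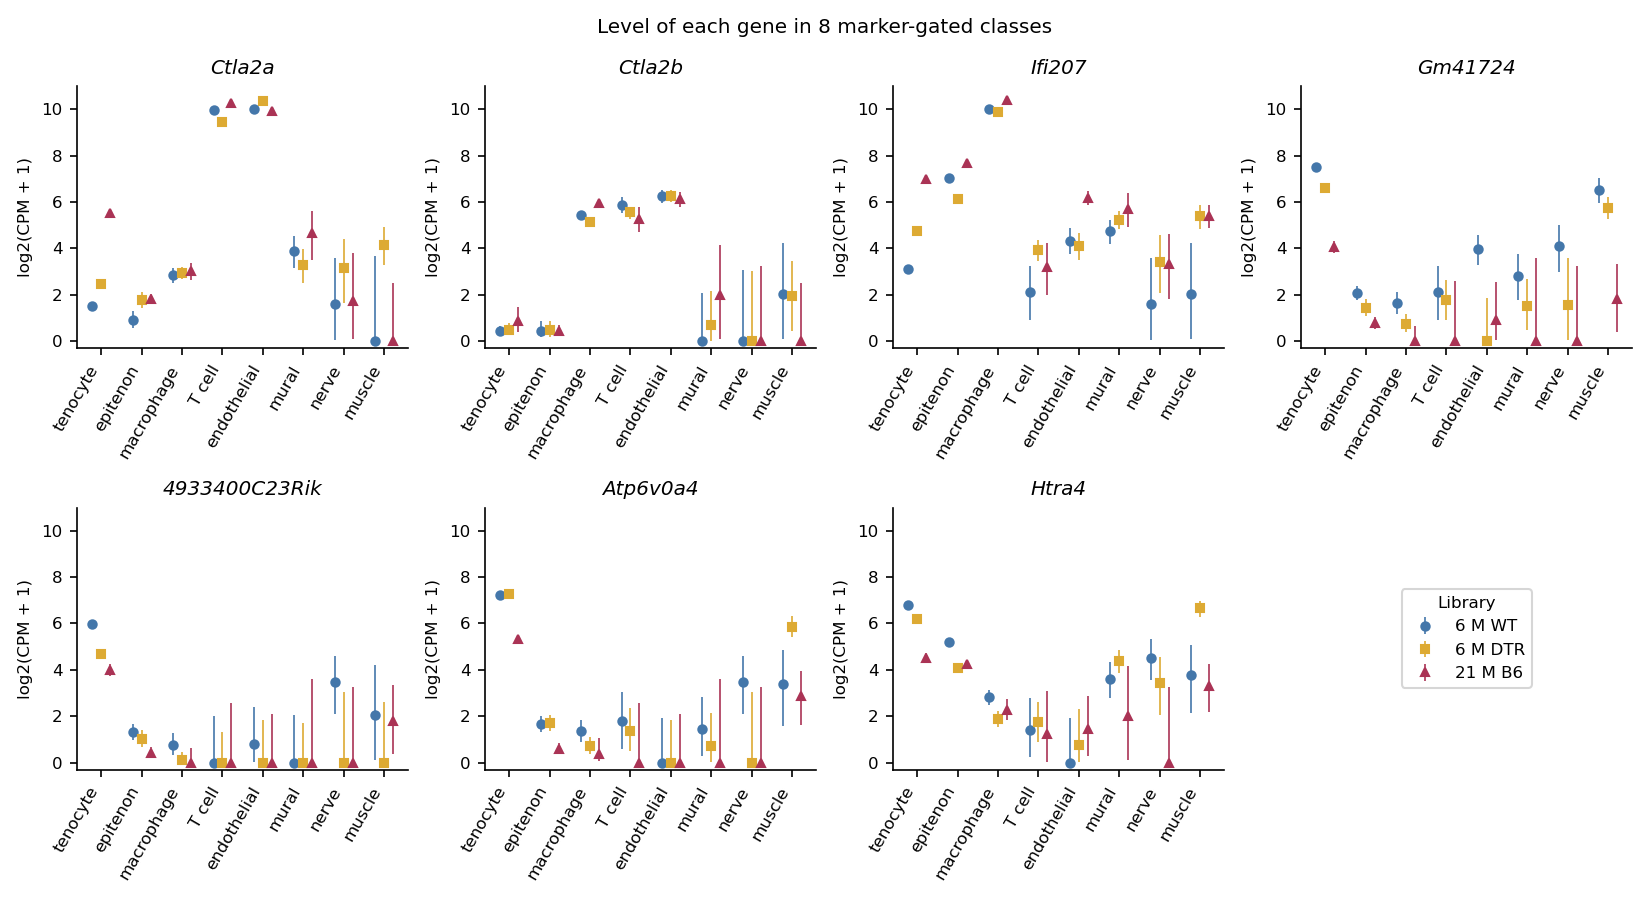
Level of each gene, as log2(CPM + 1), in 8 marker-gated classes of WT, DTR and B6, with exact 95% intervals for counting error. *Ctla2a* lies at 703 to 1292 CPM in T cell-like and endothelial-like cells of all 3 libraries, and *Ifi207* at 939 to 1334 CPM in macrophage-like cells, whereas the 4 members lower in B6 are at their highest or near it in tenocyte-like cells.

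By class, the members measured in epitenon-like cells were past 2-fold lower for 3 of 6, beside 1.41% of 7716 genes with at least 10 CPM, and higher for 1 of 6, beside 1.75%. The 3 lower ones, *Gm41724*, *4933400C23Rik* and *Atp6v0a4*, were at 3.25 CPM or less there, below the level of the genes that share counts, and the summed tenocyte markers in the same cells were at 285, 223 and 97.6 CPM in WT, DTR and B6. In macrophage-like cells 0 of 4 measured members were past 2-fold, beside 3.01% lower and 2.93% higher among all genes. In T cell-like cells the count was 0 of 2, beside 10.7% lower and 3.32% higher among all genes, and in mural-like cells 0 of 2, beside 19.0% and 5.45%. Endothelial-like cells had *Ifi207* higher and *Gm41724* lower of 4, beside 5.08% and 7.64%, and muscle-like cells the same pair of 2, beside 9.71% and 18.6%. In both classes *Gm41724*, and in muscle-like cells *Ifi207*, reached the limit for being measured almost wholly through 1 library. No member was measured in nerve-like cells.

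**Figure D5:**
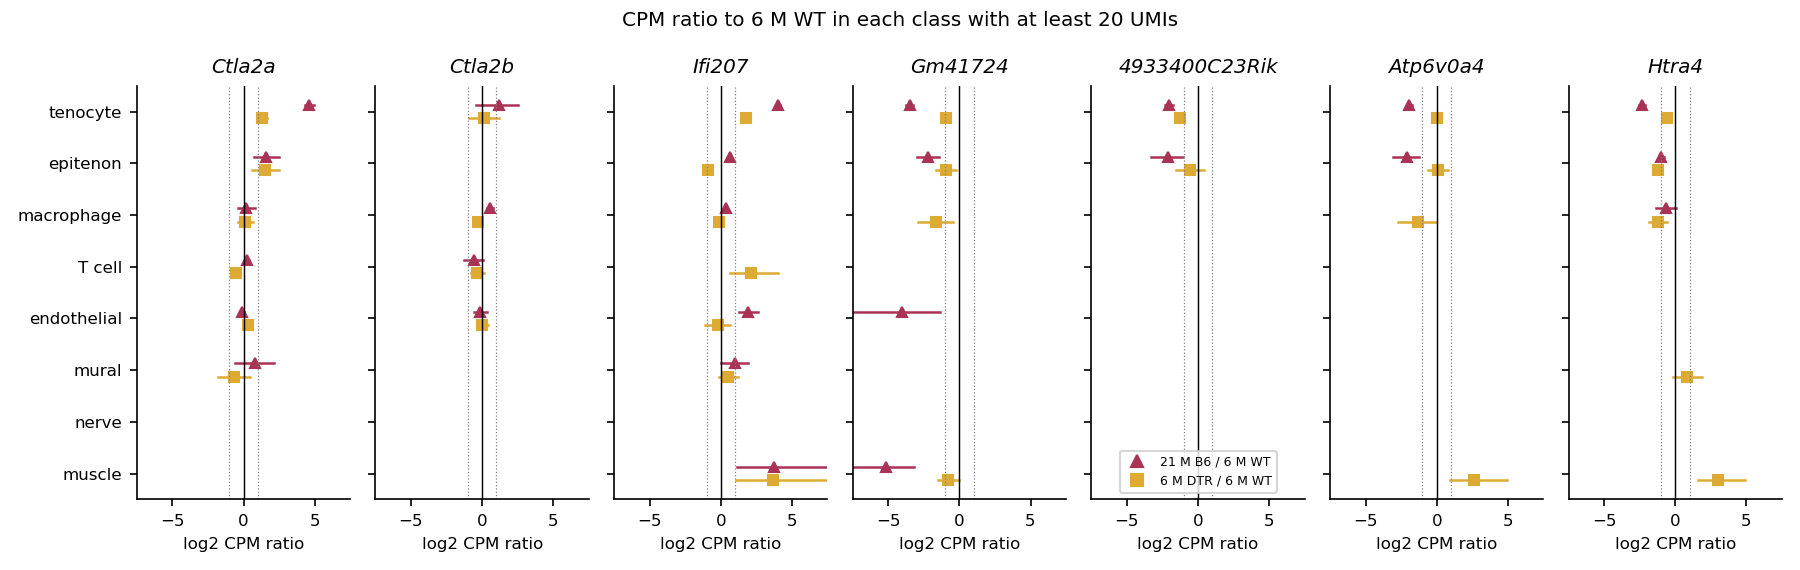
Log2 ratio of CPM to WT for B6 (triangles) and DTR (squares) in each class with at least 20 UMIs, with exact 95% intervals, dotted lines at 2-fold; intervals may run past the axis. *Ctla2a* is at 24.6-fold in tenocyte-like cells and near 1 in T cell-like (1.21) and endothelial-like cells (0.938), and *Atp6v0a4* is near 1 in DTR and 0.261 in B6 tenocyte-like cells.

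Most genes beside the members on the chromosome differed by less than 2-fold. Over 36 distinct measured neighbours that are not members themselves in tenocyte-like cells, 3 on each side of each member by the order of the reference gene table, 3 were past 2-fold lower and 3 higher, with a median ratio of 0.859. The 3 higher were *Ifi204*, *Ifi211* and *Ifi203* next to *Ifi207*. Among the lower ones were *Letm2* near *Htra4* (0.365, 0.275 to 0.475) and *D630045J12Rik* near *Atp6v0a4* (0.324), both in the direction of the member. *Ctla2a*, which is the nearest measured gene on one side of *Ctla2b*, was left out of these counts as a member. *Lox*, the collagen crosslinking enzyme that lies next to *Gm41724*, had 1951 and 1973 CPM in WT and B6, a ratio of 1.01. *Plod2*, a collagen lysyl hydroxylase next to *4933400C23Rik*, had a ratio of 0.870, and *Tm2d2* next to *Htra4* one of 0.856. *Nnt*, which is deleted in part in C57BL/6J mice, had 0.354, 0.415 and 0.548 CPM in tenocyte-like cells of WT, DTR and B6, near 0 in all 3 libraries.

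Within tenocyte-like cells the members that were lower in B6 tended to be found in the same cells. Cells with *Htra4*, after thinning to 5000 UMIs, held *Gm41724* in 35.7%, 28.7% and 13.1% of cases in WT, DTR and B6, against 17.7%, 10.4% and 4.37% of the other cells. For *Atp6v0a4* the shares were 53.1%, 55.7% and 29.2% against 39.3%, 36.7% and 14.5%. For the pair of non-coding RNAs the order differed between libraries, since *Gm41724* was found in 19.3%, 16.9% and 3.81% of cells with *4933400C23Rik* against 22.4%, 13.4% and 4.97% of those without. These shares are a description, with 36.7 expected *Htra4*-positive cells in B6. In B6, *Ifi207* was found in 5.50% of cells with *Htra4* and 15.7% of the others.

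Over the 15 sums of 5 classes in 3 libraries, the genes whose levels ran most like each member were compared by Pearson's r of log2(CPM + 1), as a description only, since the sums share libraries and depth. *Atp6v0a4* was most like *Col11a1* (r = 0.978), *Clec3a* and *Cilp2*, and *4933400C23Rik* most like *2310015D24Rik* (r = 0.981) and *Fibin*. *Gm41724* was most like *Cilp2* (r = 0.923), *Chad* and *4933400C23Rik*. *Ifi207* was most like *F13a1* (r = 0.946), *Ctla2a* like *Gimap9* (r = 0.957), *Ctla2b* like *Psmb9* (r = 0.978) and *Htra4* like *Fgfrl1* (r = 0.948).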

How the data were processed

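FDL tendon cells of the WT, DTR and B6 libraries, 3 in all, were measured by droplet single-cell RNA sequencing. The deposited files hold UMI counts per gene and barcode, made by the authors with Cell Ranger, version 2.1.1 per the labels and 6.0.1 per the matrix headers. The genome build is not given in the sources used here, nor is the gene annotation. The filter of the study was applied (1000 to 5000 genes, at most 10% mitochondrial counts). Cells were placed in a class by marker scores (mean log-normalised value of each marker scaled to its 0.995 quantile) when at least 3 markers were found, the score was at least 0.3 and the next score at most 0.5 of it. Markers were Tnmd, Fmod, Cilp2, Fibin, Chad, Thbs4, Scx and Mkx for tenocytes, and 6 to 8 genes for the others. Cells near the limit are those of that top class whose ratio of next to top score lay within 0.1 of 0.5.

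Counts were summed per class and library and divided by all UMIs of the class (CPM). Ratios carry exact conditional binomial intervals, and no p-value was computed. The intervals were run on simulated counts with the spread they assume and no clumping of UMIs in single cells. That run therefore does not test them for clumped counts such as those of *Ctla2a*. Thinned shares are expected shares at 2000 or 5000 UMIs per cell. Genes named are the 7 members, the listed families, the neighbours, and the 3 genes most like each member. Of the neighbours, 1 is not reported by name here. Members and lists were chosen with earlier results of these data known. The automatic doublet call marked 1, 6 and 1 cells and had not worked, so doublets were kept, and the alternative removed the 5% of cells with the highest doublet scores (418, 328 and 240). Other alternatives changed the mitochondrial limit, cell filter, gate, clustering, scaling, weighting, sex, reference library and thinning. Python 3.11.15, scipy 1.17.1, scanpy 1.11.5, R 4.3.3, edgeR 4.0.16 (normalization factors only) and Seurat 5.3.0 were used.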

Additional observations from a re-analysis of the deposited data

How the results depend on the processing

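No paired analysis was possible because each group is 1 library. The number of classes past 2-fold in the direction of tenocyte-like cells, themselves included, was 2 for *Ctla2a*, 1 for *Ctla2b*, 3 for *Ifi207*, 4 for *Gm41724*, 2 for *4933400C23Rik*, 2 for *Atp6v0a4* and 1 for *Htra4*. It became 4 with all deposited barcodes, 0 with the stricter gate and 1 without the 2 highest cells for *Ctla2a*, and 0 for *Ctla2b* with a mitochondrial limit of 5%, with all barcodes and with the mean over cells. It became 1 for *Ifi207* in integrated clusters, or 2 with the vascular cluster (2.58), which merges endothelial-like and mural-like cells and was not counted, and 2 for *Gm41724* with the stricter gate, in male cells and without the 2 highest cells. For *4933400C23Rik* it became 1 with the stricter gate, in female cells, in male cells and with DTR as the reference, and for *Atp6v0a4* 1 in male cells. For *Htra4* it became 2 without doublets, in female cells, in male cells and with the mean over cells, and 3 in integrated clusters (4 with the vascular cluster, at 0.387) and with DTR as the reference. *Atp6v0a4* was also past 2-fold lower in muscle-like cells with DTR as the reference (0.109) and in the integrated macrophage cluster (0.0517). The vascular cluster, not counted, was at 0.0352. *Gm41724* was not counted in endothelial-like cells with DTR as the reference. In integrated clusters it was past 2-fold lower in the tenocyte, epitenon and macrophage clusters. Not every change in these counts is listed. The cause of the changes was not tested, though fewer cells or UMIs leave fewer classes counted. Ratios turned direction for *Ctla2a* in male epitenon-like cells (0.567) and in T cell-like cells at the 5% limit (0.272), for *Ifi207* in female mural-like cells (0), and for *Htra4* in epitenon-like cells, at 2.50 in male cells and 1.17 against DTR. Over all alternatives the tenocyte ratio ranged from 1.34 to 45.4 for *Ctla2a*, 0 to 2.64 for *Ctla2b*, 4.42 to 25.1 for *Ifi207*, 0.0655 to 0.168 for *Gm41724*, 0.200 to 0.610 for *4933400C23Rik*, 0.232 to 0.324 for *Atp6v0a4* and 0.157 to 0.441 for *Htra4*. Depth limits every class other than tenocytes for the 2 non-coding RNAs and *Atp6v0a4*.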

Other observations

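Of the 5 cells with 89 to 169 *Ctla2a* UMIs in the tenocyte cluster of B6, the cells with 154 and 140 UMIs were each other's nearest of 1038 cells of that cluster and library over 7615 genes, with r = 0.760, and their next nearest cells, both with 0 *Ctla2a* UMIs, had r = 0.720 and 0.733. The nearest cells of the other 3 had 0 *Ctla2a* UMIs. These pairs were looked for after seeing the values, and no test was made.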
